A study of Homo sapiens with 6 samples.

Results

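The genes described here are 9 genes of the major histocompatibility complex (MHC) class I antigen presentation pathway, namely HLA-B, HLA-C, HLA-E, B2M, TAP1, TAP2, TAPBP, PSMB8 and PSMB9. They were chosen by name for their place in the pathway, and all 9 were found among the 21314 entries of the deposited tables and passed the filter on low counts. RNA sequencing was performed in ARPE-19 cells, an established human retinal pigment epithelial (RPE) line, to ask how transcripts differ when PDZK1, a PDZ domain scaffold at the cell membrane, is overexpressed in high glucose. The control group held 3 libraries of cells transduced with a control lentivirus, and the PDZK1 group held 3 libraries of cells transduced with a PDZK1 overexpression lentivirus. Both groups were transduced at a multiplicity of infection of 10, selected with 4 µg/ml puromycin and kept in 37.5 mM glucose for 48 h, so the controls carried virus, selection and high glucose as well. The 3 libraries of a group came from 1 cell line, and nothing in the labels says whether they were separate transductions, so p-values measure the spread between these libraries, which may be technical.

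MHC class I molecules carry peptides from proteins made inside the cell to its surface, where cytotoxic T cells read them. The heavy chain (HLA-B, HLA-C or the less variable HLA-E) pairs with β2-microglobulin, encoded by B2M. Peptides are cut by the proteasome, whose interferon-inducible catalytic subunits PSMB8 and PSMB9 replace constitutive ones to form the immunoproteasome. The transporter made of TAP1 and TAP2 moves peptides into the endoplasmic reticulum, and tapasin, encoded by TAPBP, holds the empty class I molecule beside the transporter. Interferons raise the transcription of these genes together, largely through factors that include IRF1 and NLRC5. The RPE lies at the blood-retina barrier, and its class I level bears on how T cells recognise it.

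The labels and the cell type were checked in the same libraries. In CPM, counts scaled to library size, PDZK1 had 0.588, 0.583 and 0.834 in the controls and 94.3, 77.5 and 89.2 in the PDZK1 group (log2 fold change 7.03, SE 0.131, edgeR adjusted p = 8.16e-09). Leukocytes carry high class I levels, and of 9 leukocyte markers 6 were at 3 counts or fewer in every library and 0 passed the filter. PTPRC was at 0 counts in all, and the summed level was 0 to 0.217 CPM in control and 0.0631 to 0.366 CPM with PDZK1. Of 12 RPE markers, RPE65, TYR and TTR were at 3 counts or fewer in every library. OTX2 and MITF were at 1123 counts or more in every library, and RLBP1, TYRP1, PMEL and SERPINF1 were at 12 to 166 counts. The epithelial keratins KRT8 and KRT18 were at 19303 counts or more. PDZK1 replicate 1 stood apart from the other libraries, with 358 CPM of BEST1, a chloride channel of the RPE, against 4.32 to 5.60 CPM elsewhere, and with the highest level of most interferon-stimulated genes. Total counts per library ran from 27970618 to 32804567.

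None of the 9 genes passed the threshold for a difference between the groups, which 522 of 13645 tested genes passed, or 3.83%. The test was edgeR's quasi-likelihood test with Benjamini-Hochberg adjustment and a threshold of 0.05. Of all tested genes, 1.41% were called higher with PDZK1 and 2.41% lower. Of the 9 genes, 5 had higher and 4 lower fitted values with PDZK1, and their median log2 fold change was 0.079, beside -0.00025 over all tested genes. This median moved with single libraries, turning to -0.037 without control replicate 3 and falling to 0.034 without PDZK1 replicate 3 and 0.040 without PDZK1 replicate 1. TAP2 was the 1 gene of the 9 with an unadjusted p under 0.05 in this test, beside 2388 of all 13645 tested genes. DESeq2 and limma-voom also called 0 of the 9. The 95% interval of the fold change lay within 1.5-fold either way for 8 genes, the exception being HLA-B. The 3 libraries of each group did not overlap in CPM for 1 of the 9 genes, TAP2, whereas 23.9% of all tested genes had groups that did not overlap.

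All of the genes but B2M, 8 in number, lie on the short arm of chromosome 6 in the MHC, and B2M lies on chromosome 15. The RefSeq promoter windows (assembly GRCh38.p14, from 250 bases before to 50 bases after a transcription start) were searched on both strands for letters known from class I promoters. Windows matched 8 of the 9 genes, HLA-E being the exception, and since TAP1 and PSMB8 had 2 starts each there were 10 windows. The core of the interferon-stimulated response element, spelled here GAAANNGAAA, was found in 5 of 10 windows, against 3.57% of the 35116 windows of the table. Those 5 belonged to B2M, TAP1, TAP2, TAPBP and PSMB8. Only this spelling was counted, so a window without it, as for HLA-B and HLA-C, can still hold a variant of the element. These 5 windows are shown because they hold the letters that interferon-activated factors read, printed 5′ to 3′ along the gene's strand with matches to the searched motifs in capitals.
B2M, chr15:44711267-44711566, plus strand: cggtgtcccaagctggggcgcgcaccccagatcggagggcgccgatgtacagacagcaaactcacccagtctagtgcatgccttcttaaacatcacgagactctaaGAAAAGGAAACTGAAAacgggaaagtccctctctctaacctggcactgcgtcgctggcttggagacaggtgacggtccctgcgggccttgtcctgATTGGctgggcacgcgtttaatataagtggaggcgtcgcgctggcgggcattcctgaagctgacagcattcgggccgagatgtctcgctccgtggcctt
TAP1, chr6:32853655-32853954, minus strand: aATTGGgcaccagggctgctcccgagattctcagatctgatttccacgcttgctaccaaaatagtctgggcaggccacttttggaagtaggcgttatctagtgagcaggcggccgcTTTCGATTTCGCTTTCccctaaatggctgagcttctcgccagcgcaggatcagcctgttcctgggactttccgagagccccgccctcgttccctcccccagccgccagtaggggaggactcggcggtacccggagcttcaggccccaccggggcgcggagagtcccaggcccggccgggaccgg
TAP2, chr6:32838690-32838989, minus strand: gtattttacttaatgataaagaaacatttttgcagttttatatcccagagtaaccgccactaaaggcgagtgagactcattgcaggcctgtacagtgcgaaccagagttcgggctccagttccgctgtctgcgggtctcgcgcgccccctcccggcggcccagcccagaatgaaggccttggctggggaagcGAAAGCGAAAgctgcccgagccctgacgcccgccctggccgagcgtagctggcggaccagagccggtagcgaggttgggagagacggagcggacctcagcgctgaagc
TAPBP, chr6:33314029-33314328, minus strand: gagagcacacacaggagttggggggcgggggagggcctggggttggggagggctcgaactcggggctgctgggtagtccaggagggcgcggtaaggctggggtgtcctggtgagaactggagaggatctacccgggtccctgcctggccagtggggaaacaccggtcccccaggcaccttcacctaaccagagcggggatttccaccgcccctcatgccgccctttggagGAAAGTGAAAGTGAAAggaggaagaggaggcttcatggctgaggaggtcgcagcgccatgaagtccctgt
PSMB8, chr6:32843998-32844297, minus strand: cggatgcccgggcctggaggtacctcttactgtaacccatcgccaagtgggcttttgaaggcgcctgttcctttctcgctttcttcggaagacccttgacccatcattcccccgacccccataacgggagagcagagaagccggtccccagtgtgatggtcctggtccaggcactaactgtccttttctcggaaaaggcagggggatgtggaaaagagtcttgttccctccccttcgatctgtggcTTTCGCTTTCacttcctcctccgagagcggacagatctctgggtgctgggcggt
In B2M, TAP1 and TAPBP the capitals hold 2 overlapping matches of the core, and in PSMB8 the core lies across the start itself, 4 bases before it. The separate capitals in the B2M and TAP1 windows are CCAAT or its complement, the core of the Y box, found in 5 of 10 windows (those of B2M, HLA-B, HLA-C, PSMB9 and 1 of TAP1) and in 34.6% of all windows. The letters TGACGTCA of the cyclic AMP response element were in 0 of 10 windows and in 1.85% of all windows. By the RefSeq starts TAP1 and PSMB9 are transcribed away from each other, and their 300-base windows shared 13 bases. In GENCODE release 29 the span of PSMB9 begins further upstream and overlaps TAP1 on the opposite strand, so the sources differ in the outer start of PSMB9. A match describes letters in a window and not a bound site.

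Compared by length with the deposited FPKM (fragments scaled by transcript length and library size), the 9 genes spanned a wide range of levels in ARPE-19 cells. B2M stood highest, at 495 to 626 FPKM over the 6 libraries. The classical heavy chains followed, with HLA-C at 215 to 272 FPKM and HLA-B at 164 to 250.7 FPKM, ranges that overlapped. HLA-E, which presents leader peptides of other class I chains to natural killer cells, lay at 77.7 to 93.0 FPKM. PSMB8 at 44.9 to 51.7 FPKM and TAPBP at 37.4 to 45.4 FPKM overlapped as neighbours, and TAP1 was below both at 20.1 to 24.6 FPKM. PSMB9 at 8.05 to 10.8 FPKM and TAP2 at 7.26 to 8.42 FPKM were lowest and overlapped too.

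**Figure D1:**
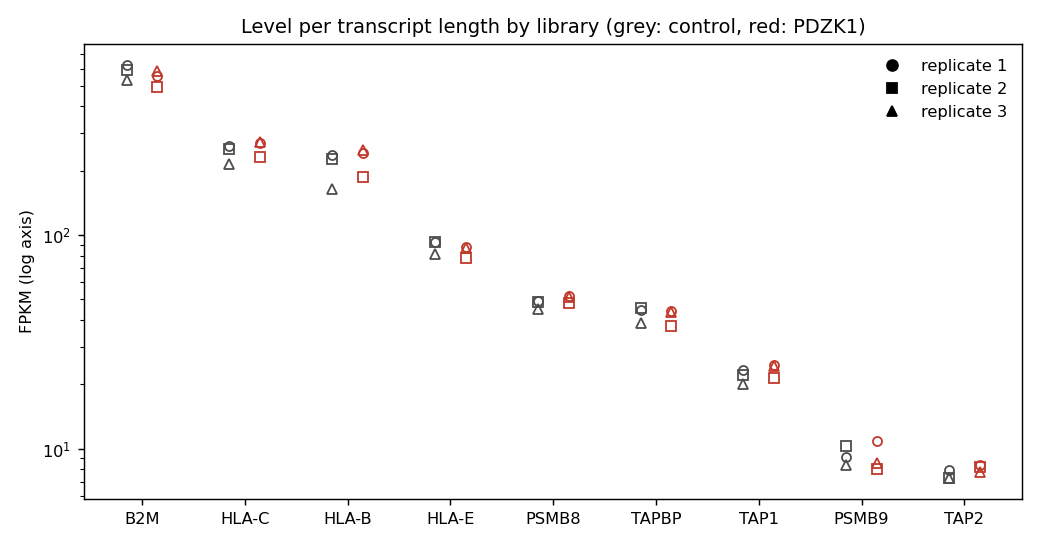
FPKM of the 9 class I presentation genes on a log axis, with 1 point per library, control in grey and PDZK1 in red, and genes ordered by their mean. B2M lay highest (495 to 626 FPKM) and TAP2 lowest (7.26 to 8.42 FPKM), and the groups lay close together within each gene.

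Among the heavy chains, HLA-B (ENSG00000234745, chromosome 6, GENCODE release 29 on GRCh38) had 396, 383 and 276 CPM in control replicates 1 to 3 and 408, 313 and 419 CPM in PDZK1 replicates 1 to 3. Each group held 1 library well below its other two, control replicate 3 and PDZK1 replicate 2, and the groups overlapped. Means were 352 ± 65.7 CPM (SD, n = 3) in control and 380 ± 58.5 CPM (SD, n = 3) with PDZK1. The fitted difference of HLA-B, PDZK1 minus control, was a log2 fold change of 0.11 with SE 0.195 and edgeR adjusted p = 0.84, and its 95% interval from -0.41 to 0.63 was the widest of the 9. Without control replicate 3 the value was -0.037, and without PDZK1 replicate 2 it was 0.23.

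HLA-C (ENSG00000204525), the other classical heavy chain of the set, had 436, 424 and 362 CPM in the controls and 450, 388 and 453 CPM with PDZK1. The same 2 libraries were lowest in their groups, and the highest PDZK1 library was above all controls while the lowest was below all but control replicate 3. For HLA-C the log2 fold change came to 0.079 (95% interval -0.13 to 0.29, SE 0.088, edgeR adjusted p = 0.723). HLA-E (ENSG00000204592) had 258, 257 and 226 CPM in the controls and 243, 215 and 238 CPM with PDZK1. PDZK1 replicate 2 was the lowest of all 6 libraries, and the other two PDZK1 libraries lay between control replicate 3 and the other controls. HLA-E differed by a log2 fold change of -0.089 (95% interval -0.23 to 0.057, SE 0.064, edgeR adjusted p = 0.537).

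The classical heavy chains are near-identical in sequence and highly variable between people, so reads can be split between them or lost against a reference. In the GENCODE annotation the span of HLA-B, chromosome 6 from 31269491 to 31357188 on the minus strand, also takes in HLA-C (31268749 to 31272130) on the same strand except for the 3′ end of HLA-C. The values of HLA-B and HLA-C are therefore uncertain as to which of them a read belongs to.

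B2M (ENSG00000166710, chromosome 15, 44711487 to 44718877, plus strand), the light chain, had 606, 596 and 509 CPM in the controls and 559, 476 and 569 CPM with PDZK1. Every PDZK1 library was below control replicates 1 and 2, and control replicate 3 fell within the PDZK1 range. B2M had a log2 fold change of -0.092 (95% interval -0.31 to 0.13, SE 0.092, edgeR adjusted p = 0.685).

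**Figure D2:**
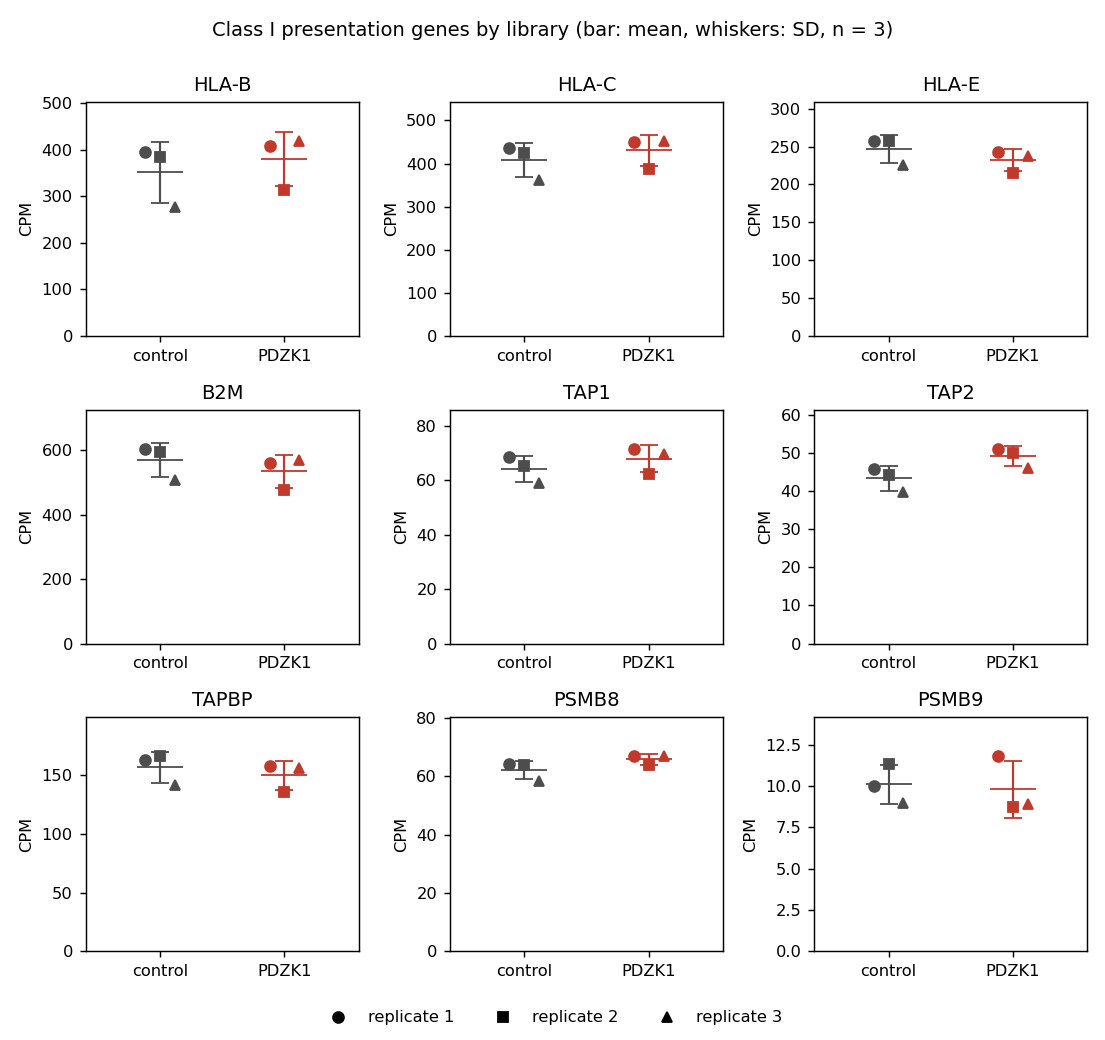
CPM of each of the 9 genes in the 6 libraries, with control in grey and PDZK1 in red, a marker shape per replicate number, and the mean and SD of 3 libraries as a bar with whiskers. Control replicate 3 (triangle) was the lowest control for every gene, PDZK1 replicate 2 (square) was the lowest PDZK1 library for all but TAP2, and the groups overlapped for all but TAP2.

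TAP1 (ENSG00000168394, chromosome 6, 32845209 to 32853978, minus strand), a subunit of the peptide transporter, had 68.5, 65.1 and 59.0 CPM in the controls and 71.6, 62.2 and 69.6 CPM with PDZK1. Both lowest libraries were the ones that were low for the heavy chains, and the groups overlapped. For TAP1 the fit gave a log2 fold change of 0.079 (95% interval -0.079 to 0.24, SE 0.071, edgeR adjusted p = 0.631).

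TAP2 (ENSG00000204267, chromosome 6, 32821833 to 32838780, minus strand), the other subunit, had 45.9, 44.2 and 39.8 CPM in the controls and 51.2, 50.0 and 46.2 CPM with PDZK1. All PDZK1 libraries lay above all controls, with a narrow gap between PDZK1 replicate 3 and control replicate 1. TAP2 had a log2 fold change of 0.18 (95% interval 0.030 to 0.33, SE 0.067), with an unadjusted p of 0.023 and an edgeR adjusted p of 0.193, which misses the threshold. In FPKM the groups overlapped, with 7.93, 7.27 and 7.26 in the controls and 8.42, 8.23 and 7.79 with PDZK1.

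The reads of TAP2 have a neighbour that changed. In the annotation TAP2 overlaps a same-strand entry, ENSG00000250264 (AL669918.1), and this entry was lower with PDZK1. It had 214, 176 and 215 counts in the controls and 107, 119 and 122 counts with PDZK1, with no overlap between the groups. On the log2 scale it fell by 0.89 (SE 0.156, edgeR adjusted p = 0.0141). With TAP2 and the entry added up to 1 row, an alternative chosen after seeing the data, the sum was 52.5, 49.9 and 47.5 CPM in the controls and 54.5, 53.6 and 50.0 CPM with PDZK1, and the groups overlapped. Summed, TAP2 and the entry had a log2 fold change of 0.076 (95% interval -0.054 to 0.21, SE 0.058, edgeR adjusted p = 0.561). How the authors assigned reads between the entries is not given in the sources used here.

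TAPBP (ENSG00000231925, chromosome 6, 33299694 to 33314387, minus strand), encoding tapasin, had 162, 166 and 142 CPM in the controls and 157, 136 and 156 CPM with PDZK1. PDZK1 replicate 2 was the lowest library and control replicate 3 the next lowest. For TAPBP the log2 fold change was -0.066 (SE 0.079, edgeR adjusted p = 0.74), and it was 0.0028 without PDZK1 replicate 2. The FPKM ratio of TAP1 to TAP2, the partners of 1 transporter, was 2.92 ± 0.145 (SD, n = 3) in control and 2.88 ± 0.273 (SD, n = 3) with PDZK1.

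PSMB8 (ENSG00000204264, chromosome 6, 32840717 to 32844703, minus strand), the immunoproteasome subunit that takes the place of PSMB5, had 64.2, 63.7 and 58.4 CPM in the controls and 66.8, 63.7 and 66.7 CPM with PDZK1. Control replicate 3 stood apart below the rest, and PDZK1 replicate 2 was level with control replicate 2. PSMB8 had a log2 fold change of 0.081 (95% interval -0.037 to 0.20, SE 0.053, edgeR adjusted p = 0.481), the narrowest interval of the 9. PSMB9 (ENSG00000240065, chromosome 6, 32844136 to 32859585, plus strand), which replaces PSMB6, was the most sparsely counted gene, with 247 to 378 counts per library. It had 10.0, 11.3 and 8.95 CPM in the controls and 11.8, 8.70 and 8.89 CPM with PDZK1, so that PDZK1 replicate 1 was the highest of the 6 libraries and PDZK1 replicates 2 and 3 were the lowest. For PSMB9 the log2 fold change was -0.044 (95% interval -0.37 to 0.28, SE 0.144, edgeR adjusted p = 0.914), and without PDZK1 replicate 1 it was -0.20.

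Set against the constitutive subunit that each replaces, the inducible subunits were the minor form at the RNA level. The FPKM ratio of PSMB8 to PSMB5 was 0.534 ± 0.0413 (SD, n = 3) in control and 0.559 ± 0.0479 (SD, n = 3) with PDZK1. The ratio of PSMB9 to PSMB6 was 0.127 ± 0.0143 (SD, n = 3) in control and 0.122 ± 0.0236 (SD, n = 3) with PDZK1. The third pair, PSMB10 to PSMB7, stood at 0.107 ± 0.00299 (SD, n = 3) and 0.105 ± 0.00679 (SD, n = 3). In all 3 pairs the groups differed by less than 1 SD of either group. PSMB8, PSMB9 and TAP1 overlap one another or PSMB8-AS1 on opposite strands, and since the strandedness of the counting is not given in the sources used here, their reads cannot be fully told apart.

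**Figure D3:**
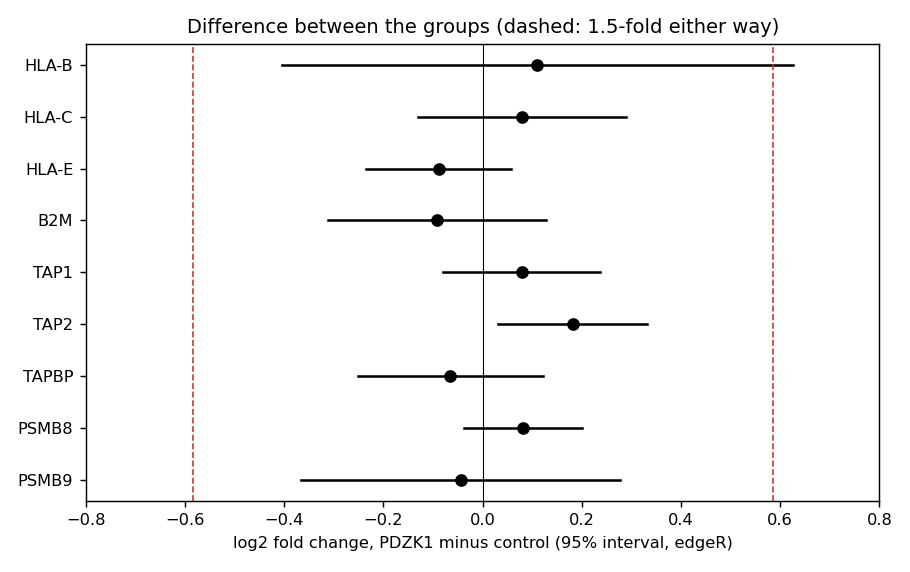
Log2 fold change, PDZK1 minus control, of the 9 genes with the 95% interval of the edgeR fit, and dashed lines at 1.5-fold either way. The intervals of 8 of the 9 genes covered 0, TAP2 (0.030 to 0.33) being the exception, and the interval of HLA-B alone crossed a dashed line.

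The spread of these genes within the groups followed the libraries. Control replicate 3 was the lowest control for 9 of the 9 genes, a place it held for 39.4% of all tested genes. PDZK1 replicate 2 was the lowest PDZK1 library for 8 of the 9, against 36.8% of all tested genes, and both held for 8 of the 9, against 20.1%. Related genes shared this in part. Both held for 4 of 6 other class I and class I-like genes, and for 0 of the 3 constitutive catalytic subunits. They also held for 5 of 11 other genes of the 20S proteasome core and 4 of 10 genes of peptide loading and trimming. Among the proteasome activators and PSMB10 they held for 2 of 5. For the listed transcription factors it was 4 of 12, and for interferon receptors and signalling genes 3 of 9. The order was therefore not particular to class I genes. Of the 23 interferon-stimulated genes described below, PDZK1 replicate 2 was the lowest PDZK1 library for 21, and both held for 11. The 9 genes together took 0.204%, 0.1997% and 0.167% of the counts in the controls and 0.203%, 0.172% and 0.204% with PDZK1, so the low libraries were set apart in both groups. Control replicate 3 had the fewest counts of the 6 libraries (27970618) and PDZK1 replicate 2 the most (32804567). Whether depth bears on the low class I share was not tested. Whether the low libraries hold fewer cells with high class I levels or less of this RNA per cell cannot be told apart in bulk RNA.

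The within-group SD of log2 CPM was 0.262 for HLA-B and 0.210 for PSMB9, the 96.3rd and 93.2nd percentiles of 11100 tested genes of at least 5 CPM. For PSMB8 it was 0.060, the 35th percentile, and the median gene had 0.077. The 5 genes whose profile over the 6 libraries lay nearest to the mean profile of the 9 were DUSP16, NSMCE2, RBM8A, XXYLT1 and FAM135A, with a root mean square difference of 0.0202 to 0.0217 in log2 CPM among 11091 candidates. DUSP16, for example, had 75.9, 75.7 and 64.9 CPM in the controls and 75.3, 67.0 and 74.3 CPM with PDZK1. The likeness was measured over 6 libraries only.

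**Figure D4:**
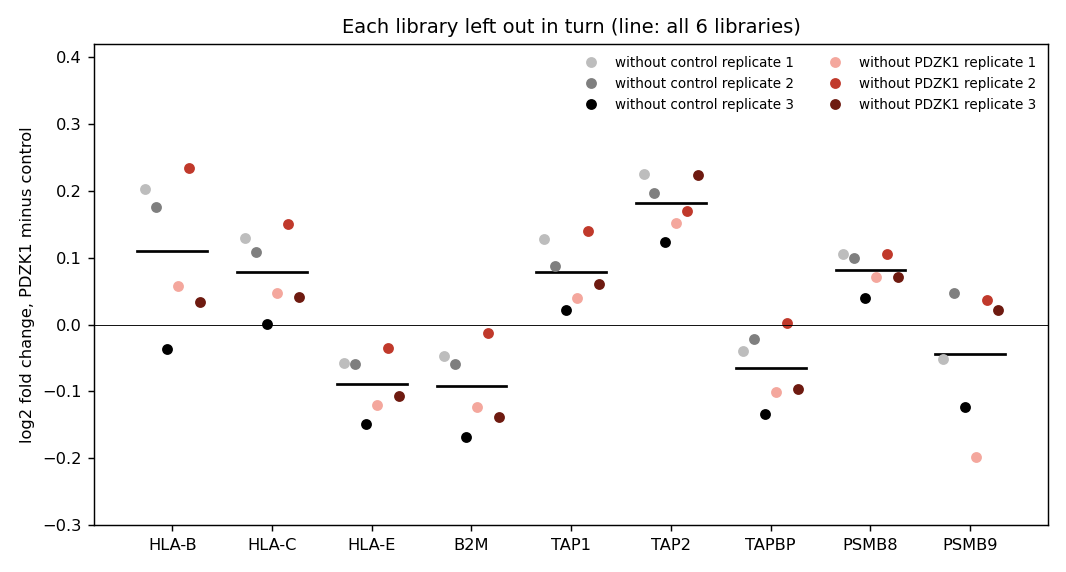
Log2 fold change, PDZK1 minus control, of each of the 9 genes with each library left out in turn (points) and with all 6 libraries (line). Control replicate 3 (black) was the lowest control for each of the 9 genes, so leaving it out gave a lower value than all 6 libraries for each. HLA-B ranged from -0.037 to 0.23.

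The class I genes are part of the interferon program, and so 23 tested genes of a list of interferon-stimulated genes were set beside them. Of these 23, 20 had higher and 3 lower fitted values with PDZK1, beside 6808 higher and 6837 lower of all tested genes. Their median log2 fold change was 0.45, and 1 of the 23 passed the threshold, beside 522 of 13645 tested genes. Without PDZK1 replicate 1, an alternative chosen after seeing the data, 16 were higher and 7 lower, and the median was 0.14. In that fit 1 of the 23 passed, beside 181 of 13813 tested genes. Without PDZK1 replicate 2 the median was 0.66 and 3 of the 23 passed, beside 293 of 13796 tested genes. The gene past the threshold with all 6 libraries was SAMD9, an antiviral factor, with 3.19, 2.88 and 3.23 CPM in the controls and 12.6, 7.81 and 9.11 CPM with PDZK1 (log2 fold change 1.67, SE 0.185, edgeR adjusted p = 0.00129). PDZK1 replicate 1 was the highest of the 6 libraries for 22 of the 23 genes, against 14.4% of all tested genes. For the 9 class I genes it was highest for 4 of the 9.

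The size of that library's shift differed between the lists. The median of the 23 interferon-stimulated genes in PDZK1 replicate 1 lay 0.75 above the gene's mean of 6 libraries in log2 CPM, and the median of the 9 class I genes lay 0.11 above it. In PDZK1 replicate 3 the medians were 0.057 and 0.048, and in PDZK1 replicate 2 they were -0.19 and -0.15. The medians of control replicates 1 to 3 were -0.20, -0.098 and -0.29 for the interferon-stimulated genes and 0.062, 0.084 and -0.14 for the class I genes. IFIT1, an RNA-binding antiviral protein, had 16.5, 21.0 and 22.0 CPM in the controls and 101, 28.8 and 32.2 CPM with PDZK1. Without PDZK1 replicate 1 the log2 fold changes of the heavy chains were 0.058 for HLA-B, 0.047 for HLA-C and -0.12 for HLA-E, and B2M had -0.12. TAP1 then had 0.040, TAP2 0.15, TAPBP -0.10, PSMB8 0.071 and PSMB9 -0.20, with edgeR adjusted p-values from 0.439 to 0.947. Every one of the 9 genes had a lower value without this library than with it. Lower values also came without PDZK1 replicate 3, at 0.034 for HLA-B, 0.041 for HLA-C, -0.11 for HLA-E and -0.14 for B2M, while TAP2 rose to 0.22. The median of the 9 genes was 0.034 without PDZK1 replicate 3 and 0.040 without PDZK1 replicate 1.

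**Figure D5:**
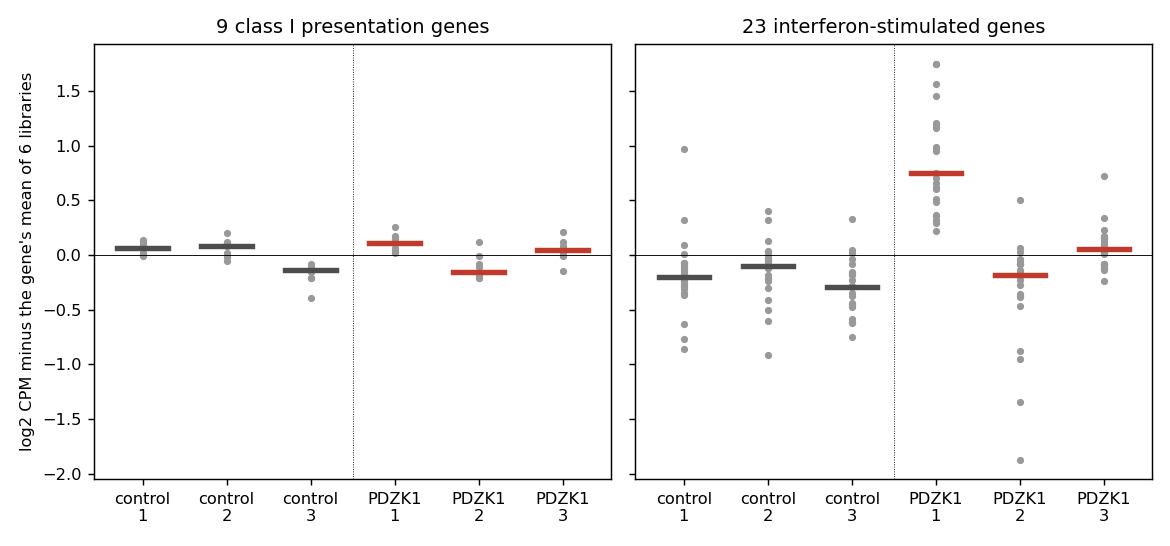
Log2 CPM minus the gene's mean of the 6 libraries, for the 9 class I presentation genes (left) and 23 interferon-stimulated genes (right), with 1 grey point per gene and the median of the list as a bar, control in grey and PDZK1 in red. In PDZK1 replicate 1 the median was 0.75 for the interferon-stimulated genes and 0.11 for the class I genes, and in control replicate 3 the class I median was -0.14.

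None of the 12 listed transcription factors of class I genes passed the threshold, and their median log2 fold change was 0.0026. NLRC5, the transactivator of class I promoters, had 39.6, 39.4 and 38 CPM in the controls and 39.7, 37.0 and 37.3 CPM with PDZK1 (log2 fold change -0.038, SE 0.054, edgeR adjusted p = 0.776). IRF1, which binds the response element printed above, had 18.9, 19.5 and 19.2 CPM in the controls and 16.9, 14.1 and 16.0 CPM with PDZK1. Its groups did not overlap, and the log2 fold change of -0.29 (SE 0.084, edgeR adjusted p = 0.0983) missed the threshold. The most abundant factors of the list were RELA, a subunit of NF-κB, at 0.072 (SE 0.065, edgeR adjusted p = 0.634) and RFX5, a subunit of the X box complex, at 0.029 (SE 0.082, edgeR adjusted p = 0.901).

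Of 9 tested interferon receptors and signalling genes, 0 passed the threshold. STAT2, a transcription factor of type I interferon signalling, had 206, 212 and 223 CPM in the controls and 279, 243 and 242 CPM with PDZK1, and its groups did not overlap. STAT2 had a log2 fold change of 0.25 (SE 0.059, edgeR adjusted p = 0.0563), and JAK1, a receptor kinase, had -0.059 (SE 0.041, edgeR adjusted p = 0.516). Of 7 listed interferons, 6 were at 3 counts or fewer in every library, and the exception was IFNE, an epithelial interferon, with a log2 fold change of 0.25 (SE 0.177, edgeR adjusted p = 0.516).

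The remaining steps of the pathway had no gene past the threshold. Of 10 genes of peptide loading and trimming, 8 had lower fitted values with PDZK1 and 2 higher, with a median of -0.072. The chaperones CALR and CANX, which fold the heavy chain, had -0.094 (SE 0.041, edgeR adjusted p = 0.27) and -0.046 (SE 0.035, edgeR adjusted p = 0.566). The constitutive catalytic subunits PSMB5 and PSMB7 had 0.0088 (SE 0.040, edgeR adjusted p = 0.942) and -0.0018 (SE 0.035, edgeR adjusted p = 0.99). The 11 other genes of the 20S core had a median of -0.0057, and its most abundant members had -0.013 for PSMB4 (SE 0.035, edgeR adjusted p = 0.891) and 0.14 for PSMA1 (SE 0.034, edgeR adjusted p = 0.0574). Among the 5 genes of the proteasome activators and PSMB10 the median was -0.0082, with -0.0082 for PSME3 (SE 0.042, edgeR adjusted p = 0.951) and -0.035 for PSME1 (SE 0.055, edgeR adjusted p = 0.805).

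Among the other class I and class I-like genes, 6 were tested and 0 passed. MR1, which presents vitamin B metabolites of microbes, had 42.3, 43.4 and 40.9 CPM in the controls and 55.6, 46.6 and 59.8 CPM with PDZK1. All PDZK1 libraries lay above all controls, and the log2 fold change of 0.36 (SE 0.085, edgeR adjusted p = 0.0574) missed the threshold. MICA, a stress ligand of natural killer cells, had a log2 fold change of -0.14 (SE 0.072, edgeR adjusted p = 0.368). In FPKM the groups of MR1 overlapped, with 9.0 to 10.5 in the controls and 10.1 to 14.5 with PDZK1. Of 10 class II genes, 3 were tested and 0 passed, CD74, the invariant chain, at 0.47 (SE 0.114, edgeR adjusted p = 0.0551) and HLA-DMA, a peptide exchanger, at 0.41 (SE 0.141, edgeR adjusted p = 0.16). Of 6 tested surface ligands that meet T and natural killer cells or phagocytes, 0 passed, with -0.068 for CD47 (SE 0.045, edgeR adjusted p = 0.489) and -0.093 for PDCD1LG2 (SE 0.207, edgeR adjusted p = 0.871).

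Across the stretch of chromosome 6 from 29555629 to 33409924 (GABBR1 to KIFC1), which holds the 8 MHC genes of the set, 3 of 104 tested genes passed the threshold, or 2.88%, with a median log2 fold change of -0.0071. The 2 that rose were TRIM26, a ubiquitin ligase of antiviral signalling, by 0.28 (SE 0.057, edgeR adjusted p = 0.0299), and PPP1R18, a regulatory partner of protein phosphatase 1, by 0.20 (SE 0.044, edgeR adjusted p = 0.0391). The third was the entry that overlaps TAP2. Without PDZK1 replicate 1, TRIM26 and PPP1R18 both missed the threshold, at 0.25 and 0.20.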

How the data were processed

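RNA sequencing of 6 ARPE-19 libraries, 3 control and 3 PDZK1, grouped by their labels, was analysed. Per the labels' processing notes, fastp 0.20.1, HISAT2 2.2.1 and GRCh38 were used. The counting program, annotation and strandedness are not given in the sources used here, and the kit was a VAHTS Universal RNA-seq kit. The authors deposited estimated counts as whole numbers per gene, unscaled, and FPKM, scaled by transcript length and library. Each table also holds 3 columns of samples not analysed here. Of 21314 entries, 853 named as assembled loci were left out.

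Counts of genes passing filterByExpr (13645) were scaled by TMM and tested with edgeR 4.0.16 in R 4.3.3 (robust quasi-likelihood test, no covariates, Benjamini-Hochberg over all tested genes, threshold 0.05). CPM used TMM-scaled library sizes, and centred log2 CPM a prior count of 2. Intervals are 95% intervals of the fit. A gene at 3 counts or fewer lies within what a count of 0 allows, for counting error only, because PCR copies cannot be told from molecules here. Tests were tried on simulated data first. Alternatives were DESeq2 1.42.0, limma-voom (limma 3.58.1), limma on log2 FPKM (pseudocounts 1 and 0.1, mean FPKM of at least 0.5 or no filter), library totals, RLE size factors, filters of at least 1 count or of 10 counts in every library, the replicate number as a block, an added fold threshold of 1.5, each library left out, and TAP2 summed with an overlapping entry.

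The genes and lists were chosen with earlier results of these data known. Named besides the 9 genes were, per list, those past the threshold or else the 2 of largest mean CPM, the 5 genes nearest in profile among those of at least 5 CPM, the called genes of the MHC stretch, and PDZK1. ENSG00000250264, IFIT1, BEST1, IRF1, NLRC5, PSMB6, PSMB10, PTPRC, RPE65, TYR, TTR, OTX2, MITF, RLBP1, TYRP1, PMEL and SERPINF1 were named after their values were seen. Coordinates are 1-based, from GENCODE release 29, and promoter sequences are from RefSeq. Some items of the lists and alternatives are not reported here.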

Additional observations from a re-analysis of the deposited data

How the results depend on the processing

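The count of class I genes past the threshold was 0 under each of 17 alternatives. Under the added fold threshold the count could only be 0, because none of the 9 genes passed without it. That alternative therefore says nothing about stability. The median log2 fold change of the 9 genes, 0.079, ranged from -0.037 (without control replicate 3, where its sign turned) to 0.11. Its shift was less than the replicate SD of 0.13. The labels state no pairing by replicate number, and the deviations of same-numbered libraries had correlations of -0.046, -0.056 and -0.14. Differently numbered libraries were not compared, so these values cannot settle whether samples were paired. The fit with the replicate block called 163 genes over the whole table and 0 of the 9, with 0.18 for TAP2 (edgeR adjusted p = 0.203). Against 522 genes over the whole table, DESeq2 called 793, log2 FPKM 184 (pseudocount 1) or 185 (pseudocount 0.1, or no filter), and fits without 1 library 181 to 875, lowest without PDZK1 replicate 1 and highest without control replicate 3.

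With each library left out in turn, log2 fold changes that crossed 0 without passing the threshold ranged from -0.037 to 0.23 for HLA-B, -0.13 to 0.0028 for TAPBP, -0.20 to 0.047 for PSMB9, -0.012 to 0.030 for PSMB5, -0.045 to 0.020 for PSME3, -0.094 to 0.015 for PSME1, -0.021 to 0.024 for PSMB7, -0.037 to 0.0070 for PSMB4, -0.023 to 0.10 for RFX5 and -0.28 to 0.046 for PDCD1LG2. With library totals only, PSME3 had 0.0096, PSMB7 0.016 and PSMB4 0.0047, and on log2 FPKM PSMB7 had 0.0074. The causes were not tested. Adjusted p-values ranged from 0.153 to 0.561 for TAP2 and from 0.627 to 0.971 for HLA-B. SAMD9 and PDZK1 stayed past the threshold in all 16 alternatives. TRIM26 missed the threshold in 8 and PPP1R18 in 9 of 16. STAT2 and MR1 passed it in 2, CD74 in 5, and PSMA1 and MICA in 1 each.

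With 3 libraries a group, the interval of HLA-B in the main fit extended past 1.5-fold. A rise of that size lay within it, and a fall of that size did not. Without PDZK1 replicate 3 the interval of HLA-B ran from -0.599 to 0.667, which took in a fall of that size as well.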
